A study of Bos taurus with 8 samples.

Results

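The genes described here are 10 genes of the cellular response to low oxygen: the transcription factor subunits HIF1A and EPAS1, the oxygen sensors EGLN1 and EGLN3, the secreted factors VEGFA and ADM, and the intracellular targets PDK1, BNIP3, NDRG1 and ANKRD37. They were found as array probes whose deposited gene name equals one of these symbols. Each gene had 1 probe, which gives 10 of the 15008 distinct probes on the array, and all 10 passed the filter on dim signals. The members were chosen by their known role with the measured 4 g against 0 g differences in view, among which that of ANKRD37 stood out, so the dose differences of these genes are given as a description, with no test.

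The samples are liver of fistulated Holstein bull cattle, 5 to 6 months old, from a trial in a 3 × 3 Latin square. All animals received hay, then for 2 days a high-grain diet that brings on subacute ruminal acidosis (SARA), then hay again. An egg-yolk antibody against bacterial lipopolysaccharide was put into the rumen daily for 14 days at 0 g (the control), 2 g or 4 g per head. The 8 arrays used here come from animals 19, 20, 23 and 24, each with 1 array of the 0 g group and 1 of the 4 g group, both taken 2 days after the challenge. The 2 g group was not analysed here, and the order in which an animal received its doses is not in the labels. The animal is thus the replicate, with n = 4 per dose. The comparison asks whether the antibody treatment altered liver transcripts after the challenge.

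The arrays differed in ways that touch the results. The dimmest arrays were 4 g of animal 19 and 0 g of animal 20, with 75th percentiles of the processed signal of 125.8 and 126.3, against 218.0 to 311.7 on the other 6. The share of probes well above background ran from 64.4% to 80.4%. Liver is the tissue in the sample labels, whereas their extraction text speaks of rumen epithelium: 14 of 15 hepatocyte markers were well above background on every array, and of 12 rumen and squamous epithelium markers 2 to 6 were, with TP63, KRT14 and DSG3 on none. Pancreatic acinar genes averaged a log2 level of 6.62 on the 0 g array of animal 23 and -5.85 to -3.79 on the others. Among 53 tested probes with 2 separate levels (a gap over 2 log2 units and over 2 times any other gap), 9 set the 0 g arrays of animals 23 and 24 apart from their 4 g arrays and 0 set animal 23 apart from animal 24. For animals 19 and 20 it was the reverse, with 0 split by dose and 11 by animal. In these probes the arrays of animals 23 and 24 grouped by dose and not by animal, against their labels, so dose differences are also given for animals 19 and 20 alone. The same split is that of the slide, on which animals 19 and 20 lay in row 1 and animals 23 and 24 in row 2.

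When oxygen is plentiful, the EGLN enzymes hydroxylate the HIF-alpha proteins HIF1A and EPAS1, and the VHL ubiquitin ligase then marks them for destruction. When oxygen falls, the HIF-alpha proteins persist, pair with ARNT and switch on genes for blood vessel growth, glycolysis and the removal of mitochondria. EGLN3, ANKRD37, VEGFA, ADM, PDK1, BNIP3 and NDRG1 are classical targets of this switch, and in liver oxygen declines along the blood flow from the portal to the central vein. Since HIF-alpha is controlled mainly as a protein, the transcripts of HIF1A and EPAS1 do not report its activity.

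The probes below are what was measured, and they are shown for the genes on which the description turns. Each is 60 bases long; a stretch of 30 bases is given 5′ to 3′ as the files list it, with the pentamer ATTTA in capitals where the probe holds it, a motif known from messages with short half-lives.
ANKRD37: aagaatacatgtATTTAcatgcctataatg
ADM: tgtctgtataatctATTTAcataaagtggg
VEGFA: ctaaatcaccgagcccggaagattagagag
EPAS1: tttgatgccggacaagctgccaaatgcaaa
ATTTA was in 2 of the 10 probes, those of ANKRD37 and ADM, and in 6.78% of all 15008 probes. GC content ran from 35% to 45% in the 10 probes (median 37.5%), at or below the median of 45% over all probes. In the assembly UMD 3.1 used by the files, the ANKRD37 probe lies on chromosome 27 at 14708537 to 14708596 (plus strand), ADM on chromosome 15 at 42911085 to 42911144 (minus strand) and VEGFA on chromosome 23 at 17256946 to 17257005 (minus strand). The EPAS1 probe spans 270 bases of chromosome 11, from 28664237 to 28664506, which is longer than the probe itself. Exon and UTR annotation was not used here.

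A level here is the log2 signal minus the array's own 75th percentile, and since a probe's brightness depends on its sequence, levels of different genes are not compared. HIF1A, the widely expressed HIF-alpha subunit, was the steadiest of the 10 genes, with a range of 0.55 over the 8 arrays against a median range of 1.21 over all tested probes. In animals 19, 20, 23 and 24 its level at 0 g was -0.45, -0.51, -0.43 and -0.02. At 4 g it was -0.42, -0.36, -0.16 and -0.57. The 0 g array of animal 24 was the highest, the 4 g array of the same animal the lowest, and the groups overlapped. The mean was -0.35 ± 0.22 (SD, n = 4) at 0 g and -0.38 ± 0.17 (SD, n = 4) at 4 g, a log2 difference of -0.03 (SE 0.24, 95% interval -0.62 to 0.56). It was 0.09 in animals 19 and 20 alone and -0.14 in animals 23 and 24 alone.

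EPAS1, the HIF-alpha subunit typical of endothelium, which also drives erythropoietin in liver and kidney, stood at -1.36, -2.28, -1.83 and -1.77 at 0 g in animals 19, 20, 23 and 24. Its level at 4 g was -2.15, -1.65, -1.78 and -1.72. The lowest values were on the 2 dimmest arrays and the other 6 lay between -1.83 and -1.36, so that the difference between doses was -0.78 in animal 19, 0.63 in animal 20 and near 0.05 in animals 23 and 24. Over the 4 animals it came to -0.01 (SE 0.29), with overlapping groups, and in animals 19 and 20 alone to -0.08. Endothelial markers were measured on all arrays (13 to 15 of 15 well above background), with summed linear levels of 14.2 to 21.2 times the 75th percentile at 0 g and 14.3 to 16.0 times at 4 g, and their part in the EPAS1 level was not tested. In bulk liver, fewer cells of a type and less RNA per cell cannot be told apart.

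**Figure D1:**
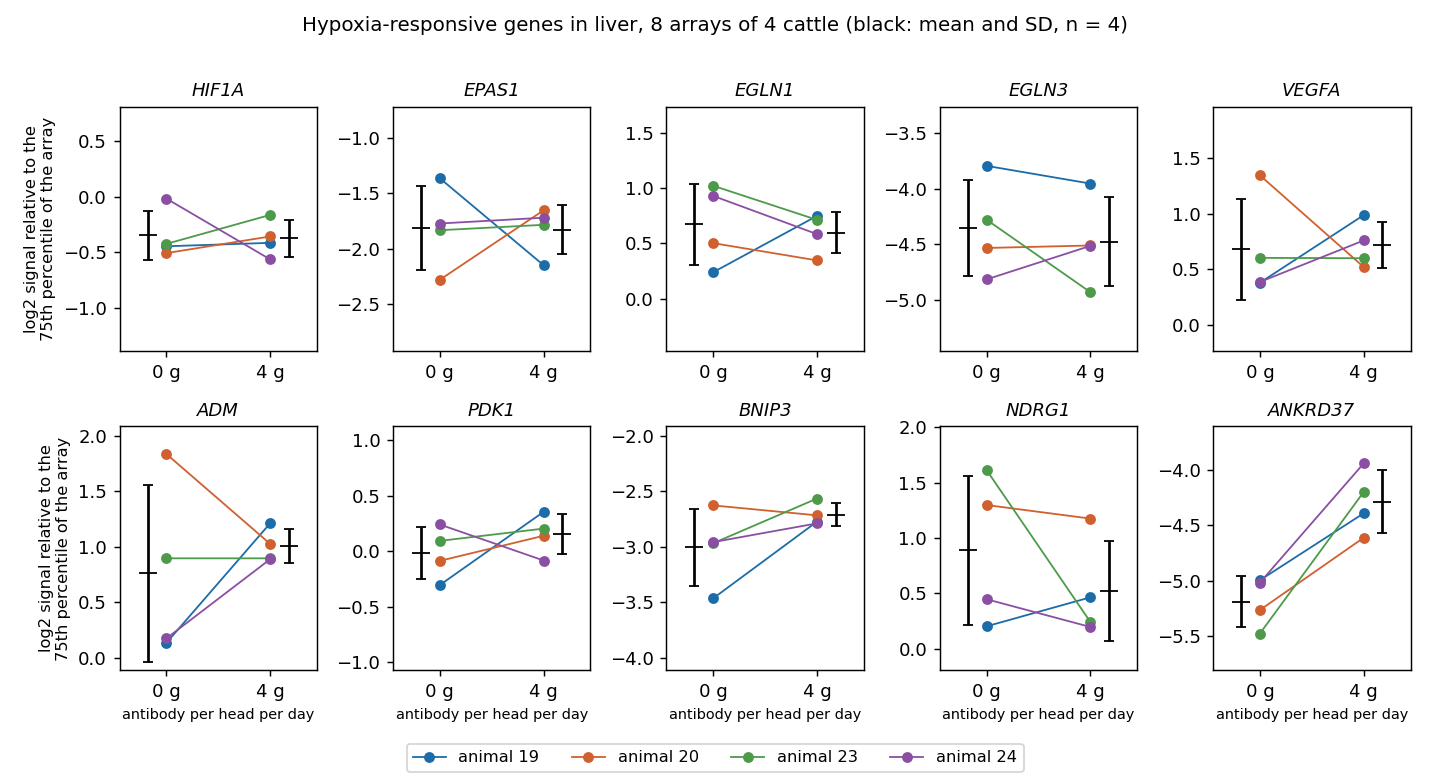
Log2 level of each gene, scaled to the array's 75th percentile (vertical axis, 2.2 log2 units in every panel) at 0 g and 4 g of antibody per head per day (horizontal axis); coloured points joined by a line are the arrays of 1 animal, and black bars give the mean and SD of 4 animals. With this scaling, ANKRD37 is the panel in which all 4 lines point up and the groups are apart; lines of VEGFA, ADM and EPAS1 run in opposite directions in animals 19 and 20.

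EGLN1, the main HIF prolyl hydroxylase in most tissues, read 0.24, 0.50, 1.02 and 0.93 at 0 g in animals 19, 20, 23 and 24. At 4 g the values were 0.75, 0.35, 0.71 and 0.58. The 0 g arrays of animals 23 and 24 were the highest 2 of the 8, and the groups overlapped. The difference was -0.07 (SE 0.25), lower in 3 of 4 animals; it was 0.18 in animals 19 and 20 alone and -0.33 in animals 23 and 24 alone.

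EGLN3, a hydroxylase whose own gene is induced by hypoxia, was faint, at 5.46 to 17.7 units of processed signal, with 7 of 8 arrays well above background. It read -3.79, -4.53, -4.28 and -4.82 at 0 g, with the value of animal 20 not well above background, and -3.95, -4.51, -4.93 and -4.51 at 4 g. Both arrays of animal 19 were above all others. The dose groups overlapped, with a difference of -0.12 (SE 0.25), which was -0.07 in animals 19 and 20 alone, and 2 animals on either side. On the 0 g array of animal 19 the rumen and squamous epithelium markers had their highest mean level (-4.85, against -7.34 to -5.87 on the other arrays), and their part in the EGLN3 level was not tested.

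VEGFA encodes the main growth factor of vascular endothelium. Its level was 0.38, 1.35, 0.60 and 0.39 at 0 g in animals 19, 20, 23 and 24. The corresponding 4 g levels were 0.99, 0.52, 0.60 and 0.76. The 2 dimmest arrays, 0 g of animal 20 and 4 g of animal 19, were the highest, and the other 6 lay between 0.38 and 0.76. Within animals the difference between doses was 0.61 in animal 19 and -0.83 in animal 20, which have 1 dim array each at opposite doses, and -0.0035 and 0.37 in animals 23 and 24. The overall difference was 0.04 (SE 0.30); it was -0.11 in animals 19 and 20 alone and 0.19 in animals 23 and 24 alone.

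ADM, the vasodilator peptide adrenomedullin, gave 0.13, 1.84, 0.90 and 0.17 at 0 g and 1.21, 1.02, 0.90 and 0.89 at 4 g in the same order of animals. It followed the order of VEGFA at the top, with the same 2 dim arrays highest, and had the widest range of the 10 genes (1.70). The 4 g arrays lay close together (SD 0.15) and within the spread of the 0 g arrays (SD 0.80). The difference was 0.25 (SE 0.36), at 1.08 in animal 19 and -0.81 in animal 20, which together gave 0.13. Without the 2 dimmest arrays, and with no block, it was 0.54, against 0.17 for VEGFA.

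The place of the dim arrays is common to much of the array. They were the 2 highest for 24.4% of all tested probes and the 2 lowest for 19.7%. Of the 10 genes, 2 had them highest (VEGFA and ADM) and 1 lowest (EPAS1), shares of the same order as over all probes. The dimmest 2 averaged 0.63 above the other 6 for VEGFA, 0.86 above them for ADM and 0.53 below them for EPAS1, where 80% of all tested probes lay between -1.05 and 0.95. VEGFA and ADM correlated over the 8 arrays at Pearson r = 0.91 as a description, and at 0.79 over the 6 brighter arrays; arrays of 1 animal share that animal, so no p is given.

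**Figure D2:**
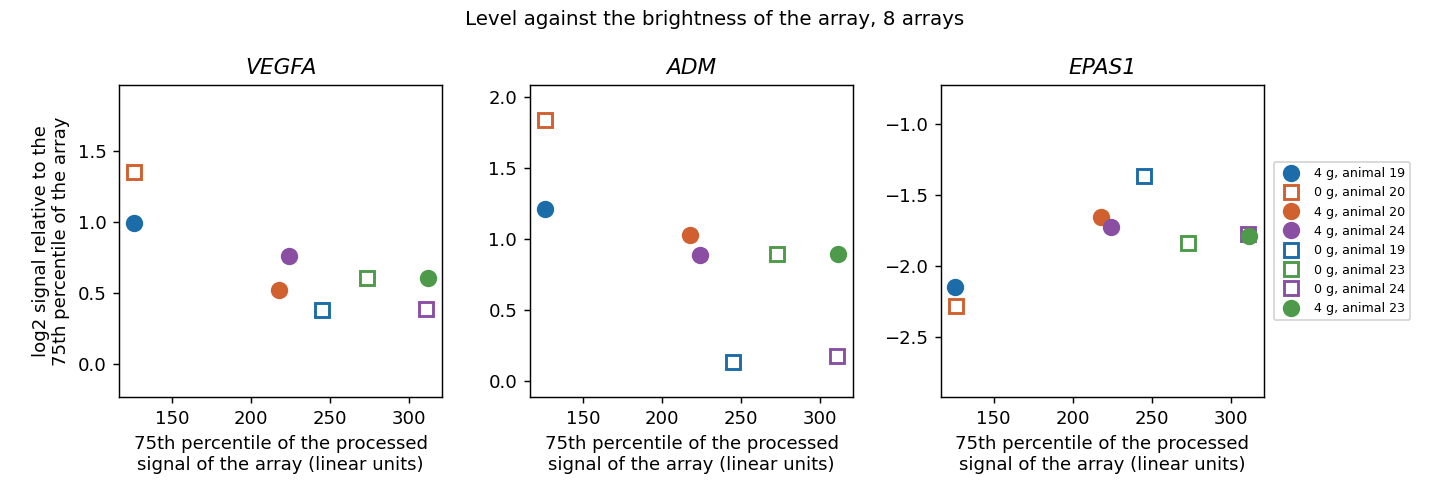
Log2 signal of VEGFA, ADM and EPAS1 (vertical axes) against the 75th percentile of the processed signal of the array in linear units (horizontal axes); filled circles are 4 g arrays, open squares 0 g arrays, and colours mark the animal. The arrays at 125.8 and 126.3 are the highest 2 for VEGFA and ADM and the lowest 2 for EPAS1.

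PDK1, a kinase that switches off pyruvate dehydrogenase, had levels of -0.31, -0.09, 0.09 and 0.24 at 0 g in animals 19, 20, 23 and 24. At 4 g these were 0.35, 0.14, 0.20 and -0.08. It was higher at 4 g in 3 of 4 animals, with animal 24 opposite and the groups overlapping, and the difference was 0.17 (SE 0.25). It was 0.44 in animals 19 and 20 alone and -0.11 in animals 23 and 24 alone.

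BNIP3, a mitochondrial protein that marks mitochondria for autophagy, showed -3.47, -2.63, -2.97 and -2.96 at 0 g and -2.77, -2.72, -2.57 and -2.79 at 4 g. Its lowest array was 0 g of animal 19, and the 4 g arrays lay within 0.22 of each other. The difference was 0.29 (SE 0.24), higher in 3 of 4 animals, and 0.30 in animals 19 and 20 alone. With normexp, another background correction, it was -0.01. Its probe is assigned to an expressed sequence tag and not to a RefSeq transcript in the files.

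NDRG1, a stress-responsive protein of growth arrest and differentiation, ranged more. Its 0 g levels were 0.20, 1.30, 1.61 and 0.45 in animals 19, 20, 23 and 24, and its 4 g levels 0.47, 1.17, 0.24 and 0.20. Animal 20 was above 1 at both doses, as was animal 23 at 0 g, and the other 5 lay below 0.5. The difference was -0.37 (SE 0.32), with -1.37 in animal 23 and -0.12, -0.25 and 0.26 in animals 20, 24 and 19. In animals 19 and 20 alone it was 0.07 and in animals 23 and 24 alone -0.81. Without animal 23 it was -0.04, and without its 0 g array and with no block -0.13. That array carried the most pancreatic acinar transcripts, with 11 of 11 acinar markers well above background. The count was 8 at 4 g in animal 23, 8 and 7 at 0 g and 4 g in animal 24, and 3 on each array of animals 19 and 20. The part of these transcripts in the NDRG1 level was not tested.

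ANKRD37, a small ankyrin repeat protein strongly induced by HIF, was the gene of the 10 whose dose groups were apart. Levels at 0 g were -5.00, -5.26, -5.48 and -5.02 in animals 19, 20, 23 and 24. At 4 g they were -4.39, -4.61, -4.20 and -3.94. All 4 g arrays were above all 0 g arrays, and the difference was positive in 4 of 4 animals, at 0.60, 0.65, 1.28 and 1.08. The mean was -5.19 ± 0.23 (SD, n = 4) at 0 g and -4.29 ± 0.28 (SD, n = 4) at 4 g, a difference of 0.90 (SE 0.24, 95% interval 0.33 to 1.48). This is the contrast in which the gene was noticed, and nothing is read from it: 0.355% of all tested probes had all 4 g arrays above all 0 g arrays, and 3.17% were higher at 4 g in 4 of 4 animals.

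The ANKRD37 signal was among the faintest that were measured. The mean brightness of its spot was 37.7 and 35.5 units at 0 g and 4 g in animal 19, 32.5 and 37.5 in animal 20, 37.6 and 44.6 in animal 23 and 38.6 and 42.3 in animal 24, over local backgrounds of 17.0 to 21.0 units. After the authors' background subtraction 3.29 to 17.0 units were left, and the 0 g array of animal 20 was not well above background. Before scaling, the processed signal of animal 19 was 7.68 at 0 g and 6.00 at 4 g, so its positive difference arises with division by the 75th percentile of a dim array. Normexp background correction adds an offset of 50 units, more than the whole ANKRD37 signal. Such an offset brings the levels of faint genes on an array closer to each other, BNIP3 and those named further on included. Its share in the normexp levels was not tested. For ANKRD37, EGLN3 and BNIP3 these were -0.62, -0.60 and -0.58 in animal 19 at 0 g. In animal 24 at 4 g they were -0.85, -0.87 and -0.78. Elsewhere they lay between -2.53 and -1.12, although the 75th percentiles there included the lowest, and those of the 2 named arrays were 244.8 and 224.3. The reason was not tested, and normexp differences of faint genes, here and further on, include these 2 arrays. With normexp the levels of ANKRD37 and EGLN3 lay within 0.16 of each other on every array, so the normexp difference of -0.03 (SE 0.45) does not check that of ANKRD37. With an offset of 1, chosen after the data were seen, the difference was -0.19, with an SE of 1.03 that exceeds it. With the main scaling the difference was 0.63 (SE 0.60) in animals 19 and 20 alone, and 1.18 (SE 0.27) in animals 23 and 24 alone.

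**Figure D3:**
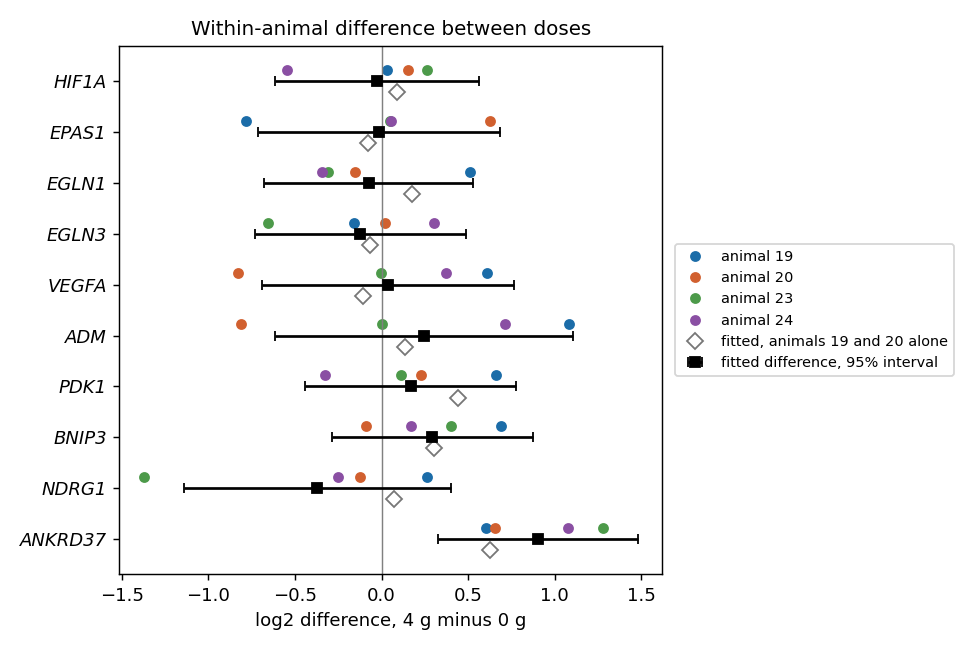
Log2 difference between 4 g and 0 g (horizontal axis) for each gene; coloured points are single animals, black squares with bars the fitted difference with its 95% interval, and open diamonds the fitted difference in animals 19 and 20 alone. The interval of ANKRD37 lies above 0 and its diamond at 0.63 (SE 0.60), while the diamonds of NDRG1, EGLN1, HIF1A and VEGFA lie across 0 from their squares.

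Over the whole array limma called 0 of 10985 probes between doses at an adjusted p under 0.05 (0%), so none of the 10 genes passed. An unadjusted p under 0.05 was found for 120 probes (1.09%). Of the 10 genes 5 were higher and 5 lower at 4 g, with a median difference of 0.01 against 0.03 over all tested probes. The 95% intervals of 7 of them (HIF1A, EPAS1, EGLN1, EGLN3, VEGFA, PDK1 and BNIP3) lay within a 2-fold change in either direction, as did those of 64.3% of all tested probes. For ADM, NDRG1 and ANKRD37 the interval reached past 2-fold on 1 side.

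Differences between animals were a measure that the choice of genes did not use. The F-test of limma on the animal terms called 0 of the 10 genes at an adjusted p under 0.05, and 0 of them had an unadjusted p under 0.05 (smallest 0.193, for EGLN3). Over all tested probes it called 0 (0%), with 298 (2.71%) at an unadjusted p under 0.05. This test takes the animal labels as given, including those of animals 23 and 24. Among animals 19 and 20 alone it also called 0 of the 10.

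Other genes came from 7 lists that exclude the 10 genes, those of pericentral and periportal liver genes included. Of 127 list genes 119 were on the array and 101 were tested, and limma called 0 of them higher and 0 lower at 4 g; 6 had an unadjusted p under 0.05 (LOX, EFNA3, ANGPT2, GLUL, LGR5 and OTC), beside 1.09% of all tested probes. The array-wide share is below the 0.05 that evenly spread p-values would give. Since the lists were chosen with earlier results known, no excess is read from these 6 genes. Of the 6, GLUL, LGR5 and OTC are liver zone genes, and LOX, EFNA3 and ANGPT2 were lower at 4 g. No list gene had dose groups that were apart. At 4 g, 4 list genes were higher in all 4 animals, 1 pericentral and 3 periportal. Another 6 were lower in all 4 animals: 3 signalling and matrix targets, 2 of the VEGF and adrenomedullin list and 1 pericentral. Over all tested probes the shares were 3.17% higher and 2.08% lower. For the counts of direction per list below, 6054 of all 10985 tested probes had a difference above 0 and 4931 below 0. Each of the tested genes named in the next paragraphs had a limma adjusted p of 1.00.

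HIF regulators and partners had 11 tested genes, 5 higher and 6 lower, with a median difference of -0.01, which was 0.03 after quantile normalization. ARNT, the partner of both HIF-alpha subunits, differed by -0.32 (SE 0.28), which was -1.09 in animal 19. EGLN2, the third prolyl hydroxylase, differed by -0.06 (SE 0.42) and HIF1AN, which hydroxylates an asparagine of HIF-alpha, by 0.24 (SE 0.35), and these were 0.05 after quantile normalization and -0.08 with normexp in turn. CITED2, which competes with HIF for its coactivators, differed by -0.11 (SE 0.33) and the coactivator CREBBP by 0.19 (SE 0.23). ELOB, a subunit of the VHL ligase, differed by 0.18 (SE 0.24). VHL itself was too dim to be tested, with 2 of the 0 g arrays and 1 of the 4 g arrays well above background.

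Metabolic targets of HIF had 11 of 17 tested genes higher and a median of 0.08. The glucose transporter SLC2A1 differed by 0.14 (SE 0.27), the glycolytic enzymes TPI1 and ENO2 by 0.38 (SE 0.25) and 0.43 (SE 0.36; -0.08 for ENO2 with normexp), and the lipid droplet protein HILPDA by -0.31 (SE 0.26). ENO2 was well above background on 2 arrays at each dose. LDHA, the dehydrogenase that makes lactate, differed by -0.14 (SE 0.42): it was -1.45 in animal 19 and 1.09 in animal 20, and averaged 1.49 lower on the 2 dimmest arrays than on the others. The median of the list was -0.05 in animals 19 and 20 alone and 0.21 in animals 23 and 24 alone. Of the 10 genes PDK1 stands closest to this list by function.

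Signalling and matrix targets had 12 of 31 tested genes higher and 19 lower, with a median of -0.11. Their leading differences were EFNA3, an ephrin ligand, at -1.05 (SE 0.30), LOX, which cross-links collagen, at -0.80 (SE 0.27) and the membrane protein TMEM45A at -0.49 (SE 0.24), each lower in 4 of 4 animals. With normexp background correction these were -0.18, -0.27 and -0.32. Only 3 of the 0 g arrays and 1 of the 4 g arrays measured EFNA3 well above background. Stellate and fibroblast markers, among whose cells LOX is made, had summed levels of 47.9 to 100.9 times the 75th percentile at 0 g and 28.6 to 49.5 at 4 g, with 10 to 12 of 12 well above background, and their part in LOX was not tested. DDIT4, an inhibitor of mTOR signalling, differed by -0.15 (SE 0.32).

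Ligands and receptors around VEGFA and ADM had 1 of 12 tested genes higher and 11 lower, with a median of -0.19 that lay between -0.30 and -0.10 in the alternatives, and none passed. KDR, the main VEGFA receptor, stood at 1.15 ± 0.12 (SD, n = 4) at 0 g and 1.11 ± 0.46 (SD, n = 4) at 4 g, a difference of -0.04 (SE 0.25). CALCRL, the receptor that binds ADM, differed by -0.44 (SE 0.41), at 0.16 in animals 19 and 20 alone, and its partner RAMP3 by -0.30 (SE 0.27). ANGPT2, which loosens vessels, differed by -0.93 (SE 0.38; -0.13 with normexp) with 2 arrays well above background at each dose, and the co-receptor NRP2 differed by -0.30 (SE 0.25). The VEGFA receptor FLT1 was well above background on 2 of the 0 g arrays and none of the 4 g arrays, with measured means of -5.38 and -6.00; in animal 24 it was 0.46 higher at 4 g. RAMP2 was not well above background on any array. The list medians in animals 19, 20, 23 and 24 were -0.47, -0.24, -0.24 and -0.05. Endothelial marker means were lower at 4 g by 0.34, 0.92 and 0.06 in animals 19, 23 and 24 and higher by 0.03 in animal 20. KDR, TIE1 and TEK are in both lists, so these medians and means share probes. The part of endothelial cells was not tested.

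**Figure D4:**
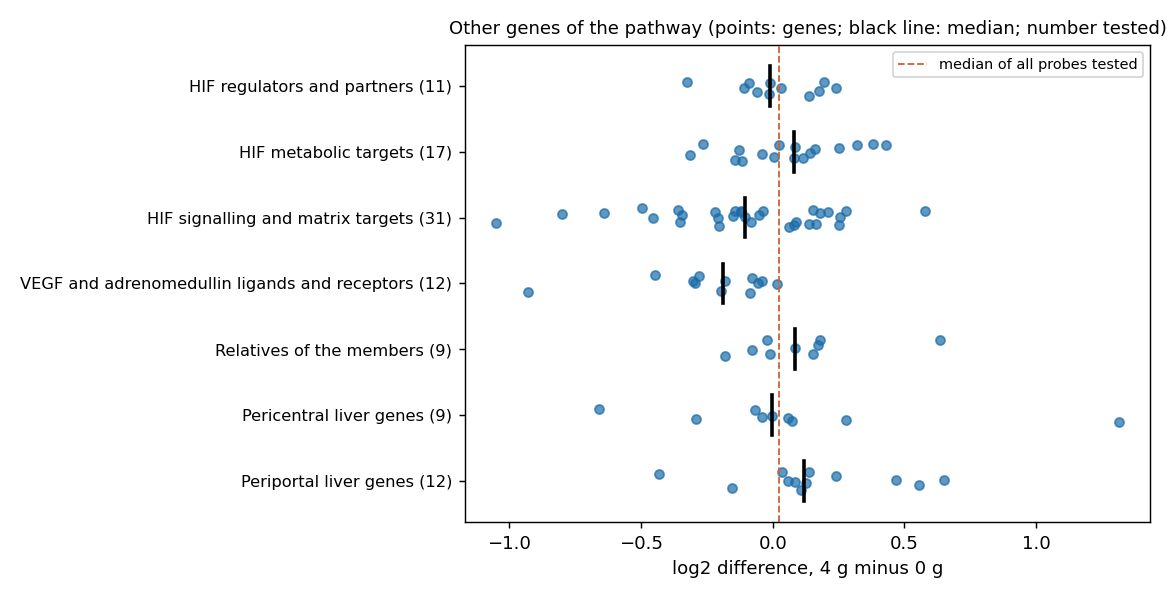
Log2 difference between 4 g and 0 g (horizontal axis) for the tested genes of 7 lists (vertical axis, number tested in brackets); points are genes, black lines list medians, and the dashed line the median of all tested probes, 0.03. The VEGF and adrenomedullin list lies mostly below 0 and no gene passed the test.

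Relatives of the 10 genes had 5 of 9 tested genes higher and a median of 0.08. PDK4, the starvation-induced relative of PDK1, differed by 0.64 (SE 0.33; -0.04 with normexp), at 0.02, -0.03, 1.23 and 1.32 in the order of animals 19, 20, 23 and 24. It was well above background on 2 arrays at 0 g and on 4 arrays at 4 g. PDK2 differed by 0.15 (SE 0.33; -0.08 with normexp). BNIP3L, the partner of BNIP3 in mitochondrial removal, differed by -0.01 (SE 0.24; 0.04 with normexp), BNIP1 by -0.18 (SE 0.33), and NDRG2, a relative of NDRG1, by 0.17 (SE 0.29). NDRG2 was lower at 4 g in 3 of 4 animals and 1.07 higher in animal 24, and its difference was -0.11 in animals 19 and 20 alone.

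Liver zones differ in oxygen, so genes of both zones were included. Pericentral genes, from the side with the least oxygen, had 4 of 9 tested genes higher and a median of -0.0033, which was 0.0082 after quantile normalization. Within them GLUL, glutamine synthetase, differed by -0.66 (SE 0.25), the stem cell receptor LGR5 by 1.32 (SE 0.41; 0.57 with normexp) and the ammonia transporter RHBG by 0.28 (SE 0.23; 0.04 with normexp). The LGR5 difference was 2.13, -0.06, 1.16 and 2.03 in animals 19, 20, 23 and 24. LGR5 averaged 1.73 higher on the 2 dimmest arrays than on the others. Periportal genes had 10 of 12 higher and a median of 0.12, with the urea cycle enzyme OTC at 0.65 (SE 0.27), histidase HAL at 0.56 (SE 0.29) and the glutaminase GLS2 at 0.47 (SE 0.38). In animals 19 and 20 alone these were 0.28, 0.09 and -0.18, and in animals 23 and 24 alone 1.02, 1.02 and 1.11. The periportal median was 0.67 in animal 24, 0.11 in animal 23, 0.05 in animal 19 and -0.08 in animal 20, so that it was 0.42 in animals 23 and 24 alone and -0.06 in animals 19 and 20 alone.

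The 8 arrays were also searched for named genes, well above background on every array, whose levels followed those of ANKRD37 or VEGFA most closely by Pearson r. For ANKRD37 these were MADCAM1 (0.93), NDUFB8 (0.93), KPNA1 (0.92), CYP4V2 (0.91) and CDCA2 (0.91), out of 8913 probes compared. For VEGFA the closest genes were GNG12 (0.97), TOP1 (0.97), GABARAP (0.97), PBX4 (0.96) and IL13RA1 (0.96), and over the 6 brighter arrays their correlations were between 0.76 and 0.97. These are the highest of many correlations over 8 arrays, so no shared regulation is read from them.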

How the data were processed

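Liver RNA was hybridised to 1-colour Agilent arrays. Per the file headers, the authors' processed intensity is background-subtracted and spatially detrended by Feature Extraction 11.0.1.1, and arrays are not scaled to each other; version 9.5 stands in the submitters' processing notes. The deposited series table holds log2 values of the same arrays and correlated with the scanner values at 1.00 on each array, with an offset of 0.05 to 0.07, so it is centred near the 75th percentile.

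Here each array's 75th percentile was subtracted on the log2 scale. The 48 outlier spots were left out, and the 10985 of 15008 probes that 4 or more of the 8 arrays measured well above background were tested with limma 3.58.1 in R 4.3.3, 2-sided, with a term for the animal and p-values adjusted by Benjamini-Hochberg over all tested probes (threshold 0.05). The script was tested on simulated data. The replicate block is the animal number of the titles. The 2 arrays of an animal deviated from their group means with correlations of -0.25 (animal 19), -0.22 (20), 0.21 (23) and 0.15 (24), so the pairing rests on the labels. Genes were named through RefSeq accessions, symbols and synonyms of ARS-UCD2.0, whose coordinates were not used; 614 probes kept the name in the file.

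The members and gene lists were chosen with earlier results of these data known. The 10 members and 15 further pathway genes are named whatever their value, then up to 3 genes per list by the smallest unadjusted p, and the 5 genes most like ANKRD37 and VEGFA. Where genes have several probes, the brightest was used. The alternatives were normexp background correction (offset 50, and an offset of 1 that was chosen after seeing the data), quantile normalization, the series table, other filters, no block, the slide row as a block, each slide row alone, array weights, an intensity trend, and fits without single animals or arrays. Promoter sequences were not used here.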

Additional observations from a re-analysis of the deposited data

Results flagged for a closer look

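The HIF1A level of the 0 g array of animal 24, at -0.0164, stood apart from the other 3 animals at 0 g, which lay between -0.51 and -0.43 (gap over range 0.83). It was 1 sample of 20 groups of 4 screened, and chance alone sets about 1 in 20 groups apart in this way.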

How the results depend on the processing

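Over 19 alternatives the count of probes called between doses stayed at 0, except that 5 were called without the 2 dimmest arrays and with no block; the cause was not tested. None of these alternatives called a gene of the pathway lists. With no replicate block 0 of 10985 probes passed (103 at an unadjusted p under 0.05, against 120 with it), and the median difference of the 10 genes was the same 0.01. Leaving out each animal in turn moved that median between -0.04 and 0.05. The F-test between animals called 1 probe among animals 19 and 20 alone and between 0 and 1 without single animals (1 without animal 19), and none of the 10 genes in any fit. Single genes changed sign in 1 to 4 alternatives each, and ANKRD37 in 2 of 18, normexp with an offset of 50 (-0.03), which is above the whole signal of the gene, and of 1 (-0.19, SE 1.03). Those values and that of BNIP3 at an offset of 1 (-0.13) were the ones among the 10 genes to move by more than 1 SD of the animal differences. The filter on all 8 arrays left out ANKRD37 and EGLN3. The number of arrays limits the precision.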
